A study of Mus musculus with 44 samples.

Results

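The opioid peptide precursor genes Penk, Pdyn and Pnoc and the opioid receptor genes Oprm1, Oprd1, Oprk1 and Oprl1 were followed across medial habenula (MHb) and interpeduncular nucleus (IPN) of adult mice. The 7 genes were chosen by name, out of 22682 gene symbols found in every one of 44 libraries. Across control mice, Penk separated the tissues most plainly: 332 to 629.6 CPM (read counts scaled to a common library size) in ribosome-bound RNA of the 3 IPN lines, against 0.950 to 2.58 CPM in that of the MHb line. Oprm1 and Oprl1 were present in the IPs of all 4 lines, from 48.4 to 169 CPM, and Oprk1 was lower in ribosome-bound RNA than in whole tissue in 4 of 4 lines. No member tested for nicotine passed in the lines that received it (ChAT, Amigo1 and Epyc). Hardly any gene did: 0 of 14560 in ChAT, 0 of 12276 in Amigo1 and 1 of 13810 in Epyc. Nothing particular to the opioid genes is read from that.

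Opioid peptides are cut out of larger precursor proteins at pairs of basic residues and act on receptors that couple to inhibitory Gi/o proteins, which lower cyclic AMP, open GIRK potassium channels and close presynaptic calcium channels. Penk is the precursor of the enkephalins, which act on the delta receptor (Oprd1) and the mu receptor (Oprm1). Pdyn is the precursor of the dynorphins, ligands of the kappa receptor (Oprk1), and Pnoc that of nociceptin, ligand of the nociceptin receptor (Oprl1). The MHb sends its axons to the IPN through the fasciculus retroflexus, a pathway that carries nicotinic receptors and has long been studied in nicotine and opioid withdrawal.

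Each library came from a pool of mice of B6J.Cg background carrying a GFP-tagged ribosomal protein, L10, in chosen cells (translating ribosome affinity purification, TRAP). RNA was taken from the anti-GFP pull-down (IP, 28 libraries) or from the whole homogenate (input, 16 libraries). The MHb line was ChAT-TRAP (DW167), in which the tag is driven from the gene of the acetylcholine-making enzyme, with 9 control IPs, 3 nicotine IPs and 4 inputs. The IPN lines carried Eef1a1-LSL.EGFPL10 switched on by Chrna5-Cre (SN83; 3 IPs, 4 inputs), Amigo1-Cre (NP231; 3 control IPs, 3 nicotine IPs, 4 inputs) or Epyc-Cre (KR363; 5 control IPs, 2 nicotine IPs, 4 inputs). In a Cre line the tag also stays on in cells that used the driver earlier in life, so an IP need not hold only cells that express the driver in the adult. Control pools were baseline or saline pump mice and, in the ChAT line, also mice on 0.2% saccharin water for 6 weeks, some of which got a saline injection 3 h before the tissue was taken. Nicotine was given as 500 mg/L nicotine tartrate in saccharin water for 6 weeks (ChAT, Amigo1) or by pump at 24 mg/kg/day for 10 or 11 days (Epyc). Pools held 3 to 9 mice. The ChAT baseline IPs are called saline in their titles and baseline in their descriptions, and of the 2 ChAT baseline inputs 1 holds the left and 1 the right MHb, each pooled from 9 males. The labels do not say whether these were the same mice, so the 4 MHb inputs may stand for 3 independent pools.

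Libraries held 7908401 to 70481509 gene counts, and 3 counts, the floor used for a gene at 0, came to 0.0495 to 0.436 CPM. The authors' files used 3 gene lists. All inputs and all Chrna5 IPs used list 1, all Amigo1 and Epyc IPs list 2, and ChAT IPs were spread over lists 1, 2 and 3, so fraction and gene list cannot be told apart in the Amigo1 and Epyc lines. The driver genes were higher in the IP of their own line than in its input: Chat by 3.39 ± 0.28 (log2, SE), Chrna5 by 1.80 ± 0.17, Epyc by 3.22 ± 0.37 and Amigo1 by 0.62 ± 0.19. In the IPs of the other 3 lines Amigo1 was also higher than in their inputs (0.39 to 0.56), and so was Chrna5 (1.82 to 3.06), while Epyc was also higher in the Chrna5 IPs (1.91 ± 0.40). By level, Chrna5 set its own line apart, at 314 to 514 CPM against at most 155 CPM in any other control IP. The inputs of that line were already higher, at 99.3 to 121 CPM against 24.4 to 39.8 CPM in Amigo1 and 21.4 to 58.5 CPM in Epyc inputs. The IP level alone thus does not show a sharper pull-down of Chrna5 cells in that line. Epyc overlapped between Epyc IPs (9.15 to 23.5 CPM) and Chrna5 IPs (4.52 to 13.2 CPM), and the level of Amigo1 in Amigo1 IPs (113 to 176 CPM) overlapped that in the IPs of each other line. Oligodendrocyte markers were lower in the IP in all 6 of 6 genes in each line. Endothelial and mural markers were less uniform. In ChAT 1 of 5 was higher, 0 were lower and 4 were not called. Called lower were 2 of 5 in Amigo1, 5 of 5 in Chrna5 and 2 of 4 tested in Epyc. The 3 Amigo1 nicotine libraries stood apart from the others: 9659 to 10168 genes reached 5 counts, against 12264 to 14049 in the Amigo1 control IPs, and their 50 highest genes held 17 to 18% of counts, against 10.7 to 11.5%.

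All positions are from GENCODE M21 on GRCm38, the assembly also called mm10. Penk is at chr4:4133531-4138819 on the minus strand, Pdyn at chr2:129686565-129699844 (minus) and Pnoc at chr14:65400673-65425472 (minus). Oprm1 is at chr10:6758506-7038198 (plus), Oprd1 at chr4:132110726-132144486 (minus), Oprk1 at chr1:5588466-5606131 (plus) and Oprl1 at chr2:181715016-181720985 (plus). Values are taken to be counts over all exons of a gene, untranslated parts included, though the settings of the counting are not given. Exon lengths and overlaps are those of GENCODE M21, whose exons were not compared with those behind the authors' gene lists. Penk shares 233 exon bases (14.3% of its exon length) with A830012C17Rik on the opposite strand and Oprm1 shares 96 (1.19%) with Ipcef1; the protocols name no strand marking, so such reads cannot be assigned.

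The coding sequences show what distinguishes the precursors whose levels are compared here. A search of the longest open reading frame for Tyr or Phe, Gly, Gly, Phe after 2 basic residues found 7 copies in Penk, of which 6 end in Met (the Met-enkephalin core) and 1 in Leu, 3 copies in Pdyn, all ending in Leu, and 1 copy in Pnoc, ending in Thr. One stretch of each kind is printed from the GENCODE M21 transcripts, 5′ to 3′ on the coding strand, with the 5 codons of the peptide's opening in capitals and the flanking codons in lower case.
Penk, Met-enkephalin core, coding bases 319 to 333: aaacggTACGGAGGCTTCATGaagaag
Penk, Leu-enkephalin core, coding bases 691 to 705: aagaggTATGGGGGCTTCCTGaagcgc
Pdyn, first copy ending in Leu, coding bases 496 to 510: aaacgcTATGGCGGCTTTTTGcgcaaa
Pnoc, nociceptin opening, coding bases 421 to 435: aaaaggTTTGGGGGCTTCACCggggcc
The Penk and Pdyn stretches code for the same opening peptide up to the fifth residue, and the Pnoc stretch opens with a Phe codon.

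Penk, the enkephalin precursor, was low in the MHb and enriched in the ribosome-bound RNA of all 3 IPN lines. In the 4 MHb inputs it stood at 4.84, 7.69, 8.36 and 13.6 CPM. The 9 ChAT control IPs ran from 0.950 through a median of 1.48 to 2.58 CPM, all below every MHb input. The IP was lower than the input by a log2 difference of -2.58 ± 0.30 (SE; 5.96-fold; adjusted p = 5.64e-06). In the IPN the order of the fractions was the opposite. The Chrna5 inputs held 103, 124, 152 and 182 CPM and the Chrna5 IPs 363, 445 and 529 CPM. The Amigo1 inputs held 77.2, 96.2, 106 and 121 CPM and the Amigo1 IPs 478.5, 626 and 629.6 CPM. The Epyc inputs held 93.3, 114, 124 and 157 CPM and the Epyc IPs 332, 347, 461, 495 and 510.1 CPM. In each IPN line every IP was above every input. Penk rose in the IP by 1.61 ± 0.19 in Chrna5 (adjusted p = 2.03e-05), 2.51 ± 0.18 in Amigo1 (1.35e-05) and 1.77 ± 0.18 in Epyc (1.00e-06). Ranked by mean, the Amigo1 IP (578 ± 86.3, SD, n = 3), Chrna5 IP (446 ± 83.3, n = 3) and Epyc IP (429 ± 83.8, n = 5) overlapped as neighbours, then came the 3 IPN inputs, which also overlapped, then the MHb input and the ChAT IP, each apart from the group before it. In bulk RNA of this kind, fewer cells of a type and less RNA per cell cannot be told apart.

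**Figure D1:**
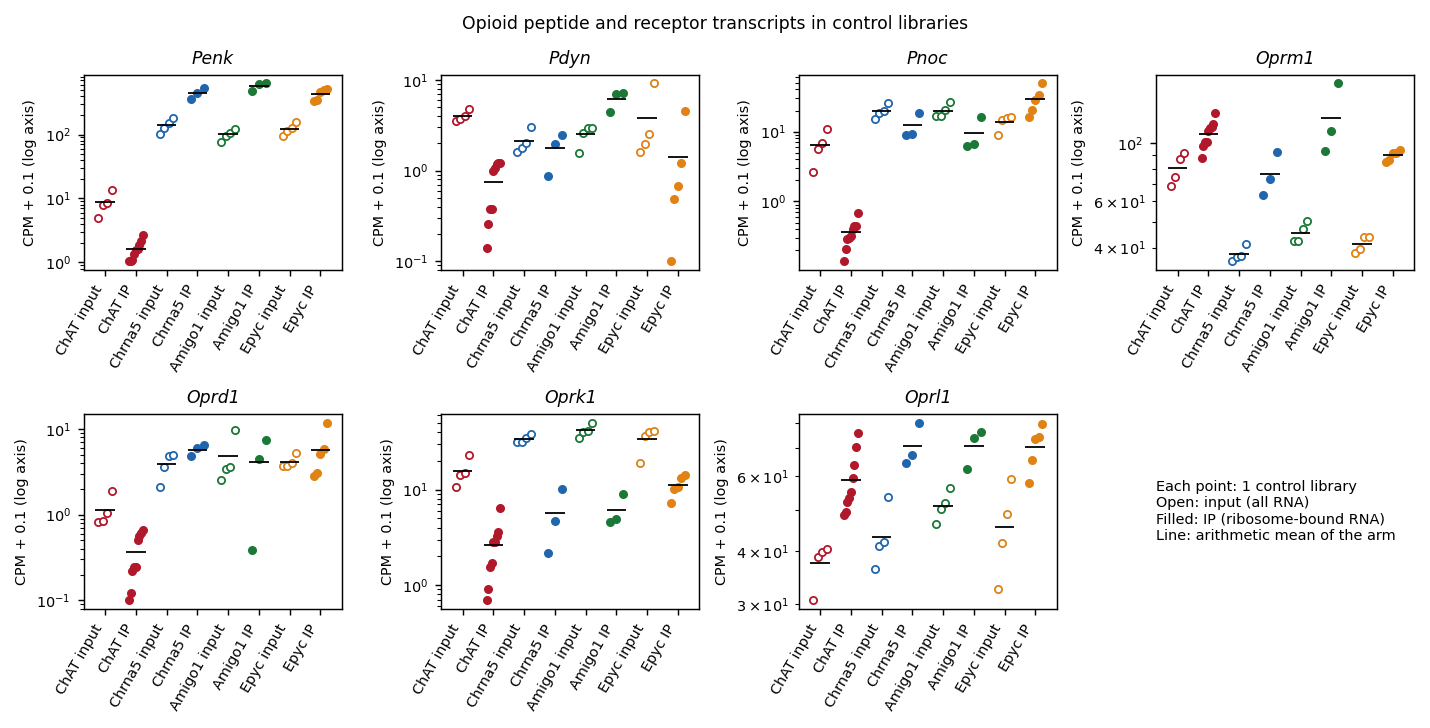
CPM of the 7 genes (log axis, 0.1 added) in every control library, with inputs as open and IPs as filled points by line and a line at each arithmetic mean. Penk IPs of the IPN lines sit at 332 CPM or above and the ChAT IPs at 2.58 CPM or below, whereas Oprk1 IPs lie below their inputs in all 4 lines.

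Pdyn, the dynorphin precursor, was a low transcript throughout, at or below 9.11 CPM in all 36 control libraries. The MHb inputs held 3.43, 3.63, 3.88 and 4.68 CPM, and the ChAT IPs 0.0406 to 1.11 CPM with a median of 0.894. No ChAT IP reached an input, and the difference was -2.64 ± 0.55 (adjusted p = 9.27e-04). Over the saline-injected pools alone, 2 IPs and 2 inputs, it was -2.91 (adjusted p = 0.077). In the Amigo1 line the inputs held 1.47, 2.51, 2.85 and 2.90 CPM and the IPs 4.34, 6.95 and 7.15 CPM. These did not overlap, but the log2 difference of 1.31 ± 0.46 missed the threshold (adjusted p = 0.0557). It passed with DESeq2 (1.30, adjusted p = 0.00998), without the baseline IP 4 (1.52, adjusted p = 0.0428) and without the saline pump IP 1 (1.17, adjusted p = 0.0398). In 5 of the 7 fits that left out 1 library it stayed uncalled, with adjusted p up to 0.129. The Chrna5 inputs (1.51 to 2.92 CPM) and IPs (0.773, 1.87 and 2.38 CPM) overlapped, with a difference of -0.33 ± 0.63 (adjusted p = 0.725). In the Epyc line 1 library of each fraction stood far from the rest: the inputs held 1.51, 1.85, 2.47 and 9.11 CPM and the IPs 0, 0.387, 0.571, 1.10 and 4.47 CPM. That difference was -1.55 ± 0.94 (adjusted p = 0.217), and -2.88 (adjusted p = 0.0285) without the baseline IP 3 that held 4.47 CPM. Every neighbour in the order of Pdyn means overlapped the next, from the Amigo1 IP (6.15 ± 1.57 CPM, n = 3) down to the ChAT IP (0.657 ± 0.455 CPM, n = 9).

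Pnoc, the nociceptin precursor, was nearly missing from the ChAT IPs and its IP-to-input difference was positive in Epyc and negative in Chrna5 and Amigo1. The MHb inputs held 2.53, 5.52, 6.71 and 10.8 CPM, and the ChAT IPs 0.0406 to 0.590 CPM with a median of 0.217. All 9 IPs lay below every input, and the difference was -4.62 ± 0.45 (adjusted p = 9.21e-07). The Chrna5 inputs held 15.01, 18.4, 19.8 and 25.8 CPM and the IPs 8.72, 9.16 and 18.5 CPM. One Chrna5 IP lay among the inputs, and the difference of -0.76 ± 0.31 missed the threshold (adjusted p = 0.0701). With DESeq2 it was -0.78 (adjusted p = 0.0358). Over the 3 paired pools with the pool as a block it was -0.86 (adjusted p = 0.0113). Without the IP that lay among the inputs (baseline 2) it was -1.21 (adjusted p = 0.00966). In 6 of the 7 fits that left out 1 library it stayed uncalled, with adjusted p up to 0.189. The Amigo1 inputs held 16.4, 16.5, 20.03 and 26.2 CPM and the IPs 6.08, 6.49 and 15.9 CPM, the last from the saline pump pool. The groups did not overlap, the difference was -1.10 ± 0.40 (adjusted p = 0.0625), and without that pool's IP it was -1.70 (adjusted p = 9.78e-05). It also passed with DESeq2 (-1.09, adjusted p = 0.0245) and over baseline libraries (-1.53, adjusted p = 3.29e-04). It stayed uncalled in 6 of the 7 fits that left out 1 library, with adjusted p up to 0.165. In the Epyc line the inputs held 8.74, 14.5, 15.6 and 16.01 CPM and the IPs 16.1, 20.3, 28.5, 33.4 and 48.7 CPM. Here every IP was above every input, and Pnoc rose by 1.05 ± 0.31 (adjusted p = 0.0133).

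The receptors followed another pattern. Oprm1, the mu receptor, is the main target of morphine. The MHb inputs held 68.8, 74.1, 86.7 and 91.9 CPM of it and the ChAT IPs 87.9 to 131 CPM with a median of 111. The ranges overlapped, and the IP was higher by 0.36 ± 0.12 (1.28-fold; adjusted p = 0.0196). That call did not hold over the 2 paired pools, with the pool as a block (0.27, adjusted p = 0.173) or without it (0.28, adjusted p = 0.455). It was also lost over IPs on gene list 1 alone (0.30, adjusted p = 0.123). The same held without the left MHb input (baseline input 1, 0.31, adjusted p = 0.0717) or without saline-injected input 2 (0.34, adjusted p = 0.0517). In the IPN the ranges were apart in all 3 lines. The Chrna5 inputs held 35.5, 36.8, 37.1 and 41.1 CPM and the IPs 63.1, 73.1 and 92.1 CPM. The Amigo1 inputs held 42.25, 42.31, 46.9 and 50.6 CPM and the IPs 93.4, 112 and 169 CPM. The Epyc inputs held 38.1, 39.5, 43.85 and 43.97 CPM and the IPs 84.6, 86.2, 91.4, 91.9 and 94.45 CPM. Oprm1 rose in the IP by 0.96 ± 0.17 in Chrna5 (adjusted p = 7.57e-04), 1.44 ± 0.21 in Amigo1 (9.48e-04) and 1.07 ± 0.14 in Epyc (1.83e-05). By mean the Amigo1 IP (125 ± 39.4 CPM, n = 3) came first, followed by the ChAT IP (109 ± 12.8, n = 9), Epyc IP (89.7 ± 4.13, n = 5), MHb input (80.4 ± 10.7, n = 4) and Chrna5 IP (76.1 ± 14.7, n = 3), each overlapping the next, with a gap before the 3 IPN inputs.

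Oprd1, the delta receptor, was low in every group. The MHb inputs held 0.719, 0.752, 0.942 and 1.77 CPM and the ChAT IPs 0 to 0.554 CPM with a median of 0.144. All IPs lay under every input, with a log2 difference of -2.02 ± 0.69 (adjusted p = 0.0234). It did not pass over the 2 paired pools with the pool as a block (-3.13, adjusted p = 0.062) or without saline-injected input 2 (-1.63, adjusted p = 0.0967). In the IPN the levels were several CPM and the fractions overlapped. The Chrna5 IPs held 4.71, 5.83 and 6.40 CPM against 2.001 to 4.86 CPM in the inputs. The Amigo1 IPs held 0.286, 4.35 and 7.28 CPM against 2.42 to 9.65 CPM, and the Epyc IPs 2.69 to 11.7 CPM against 3.58 to 5.15 CPM. None of these differences was called (0.51 ± 0.41, -0.25 ± 0.82 and 0.41 ± 0.46 for Chrna5, Amigo1 and Epyc, with adjusted p of 0.365, 0.846 and 0.517). The Amigo1 value turned to 0.34 without the baseline input 2 and to 0.27 without the saline pump IP 1, and the Epyc value to -0.04 without the baseline IP 2.

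Oprk1, the kappa receptor, was the one member lower in the IP in every line. The MHb inputs held 10.5, 14.1, 14.8 and 22.8 CPM and the ChAT IPs 0.591 to 6.29 CPM with a median of 2.70. The Chrna5 inputs held 31.3, 31.5, 34.5 and 38.5 CPM and the IPs 2.07, 4.57 and 10.0 CPM. The Amigo1 inputs held 34.9, 40.6, 41.4 and 50.3 CPM and the IPs 4.504, 4.77 and 8.865 CPM. In the Epyc line the inputs held 19.0, 36.1, 40.0 and 41.6 CPM and the IPs 7.20, 10.1, 10.6, 13.3 and 14.0 CPM. No IP of any line reached an input of that line. Oprk1 fell by 2.69 ± 0.47 on the log2 scale in ChAT (adjusted p = 2.44e-04), 2.63 ± 0.40 in Chrna5 (2.10e-04), 2.83 ± 0.31 in Amigo1 (1.67e-04) and 1.68 ± 0.26 in Epyc (1.19e-04). The IPN dissections also held RNA of neighbouring cells. The 7 dopamine neuron markers, summed, stood at 1970 to 2740 CPM in the IPN inputs and at 179 to 883 CPM in the IPN control IPs, with all 7 called lower in each IPN line and none at 0. In the ChAT line, where Oprk1 was lower in the IP too, 3 of these markers were higher in the IP, 2 were lower and 2 were not called. The part of these cells in the Oprk1 difference was not tested.

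Oprl1, the nociceptin receptor, was the most even member. The MHb inputs held 30.5, 38.6, 39.7 and 40.2 CPM and the ChAT IPs 48.4 to 75.6 CPM with a median of 55.1, without overlap. The Chrna5 inputs held 36.1, 41.1, 41.75 and 53.6 CPM and the IPs 64.35, 67.2 and 80.03 CPM, again apart. The Amigo1 inputs held 46.1, 50.03, 51.8 and 56.1 CPM and the IPs 62.15, 73.5 and 75.9 CPM, also apart. In the Epyc line the lowest IP (57.8 CPM) lay just under the highest input (59.1 CPM). The differences were of like size, 0.58 ± 0.14 in ChAT (adjusted p = 0.00237), 0.65 ± 0.18 in Chrna5 (0.0119), 0.45 ± 0.16 in Amigo1 (0.0525, not called) and 0.58 ± 0.18 in Epyc (0.0211). The Chrna5 call was lost without IP 2 (0.54, adjusted p = 0.0579), and the Epyc call without IP 2, input 2 or input 4 of its baseline pools (adjusted p = 0.0517 to 0.0621). The Amigo1 difference passed without the baseline IP 1 (0.54, adjusted p = 0.0433) or the saline pump IP 1 (0.37, adjusted p = 0.05), and also with DESeq2 (adjusted p = 0.0196), without TMM scaling (0.0298) and over baseline libraries (0.0307). It stayed uncalled in 5 of the 7 fits that left out 1 library, with adjusted p up to 0.15. The ChAT call was lost over the saline-injected pools alone (0.91, adjusted p = 0.0623). From the Chrna5 IP (70.5 ± 8.36 CPM, n = 3) to the MHb input (37.2 ± 4.56 CPM, n = 4), every neighbour overlapped the next.

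Counted over members, 7 of 7 were called between IP and input in ChAT, where 53.1% of 15289 genes tested were called. In Chrna5 4 of 7 were called (33% of 14385 genes), in Amigo1 3 of 7 (30.6% of 14506) and in Epyc 5 of 7 (36.1% of 14064). Median log2 differences of the members were -2.58 in ChAT and 0.51, 0.45 and 0.58 in Chrna5, Amigo1 and Epyc, beside medians over all genes of -0.04, 0.01, -0.03 and -0.01. Beside these backgrounds the counts in the IPN lines are read as no more than those of other genes. In Amigo1 the count depended on the setting: 6 of 7 with DESeq2 or without the saline pump IP 1, and 5 of 7 over baseline libraries.

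**Figure D2:**
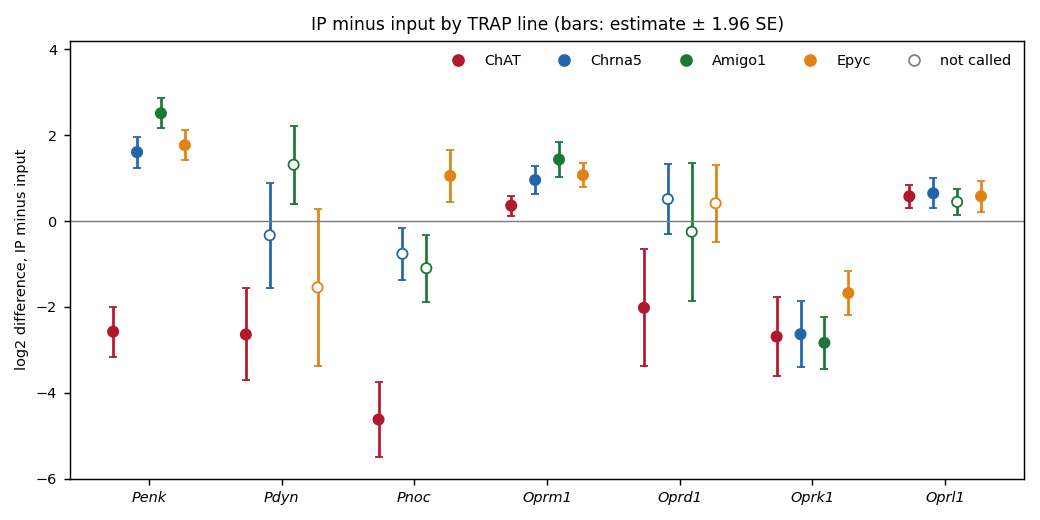
Log2 difference between IP and input for each gene and line, with bars for an approximate 95% interval (a normal factor times the SE). The bars are too narrow with so few libraries, so a bar clear of 0 is not a call. Open points did not pass an adjusted p of 0.05. Penk is negative in ChAT and positive in the 3 IPN lines, Oprk1 is negative in all 4, and Pnoc is positive in Epyc.

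Whether these differences themselves differed between lines was tested in 1 fit of the 36 control libraries, added after the values had been seen. The IP-to-input difference in ChAT was below the mean of the 3 IPN lines for 5 of 7 members, where 28.6% of 16113 genes were called. For Penk the gap was -4.47 ± 0.27 (log2, SE; adjusted p = 2.73e-15), for Pnoc -4.28 ± 0.43 (4.32e-10), for Pdyn -2.39 ± 0.78 (0.0177), for Oprd1 -2.18 ± 0.70 (0.0172) and for Oprm1 -0.75 ± 0.16 (2.27e-04). The Oprd1 gap lost its call without the ChAT saline-injected input 2 (-1.82, adjusted p = 0.0643). Oprk1 (-0.25 ± 0.48, adjusted p = 0.748) and Oprl1 (0.05 ± 0.17, adjusted p = 0.859) did not pass. The mix of gene lists differed between the ChAT IPs and the IPN IPs, so line and list are not separated in these gaps. Between Epyc and Amigo1, which share the same pair of gene lists, Pnoc was the 1 member called of 7 (5.01% of genes): its IP-to-input difference was higher in Epyc by 2.16 ± 0.60 (adjusted p = 0.0279). Without any 1 of 5 libraries (Amigo1 IP baseline 1 or 4, Epyc IP baseline 2, Amigo1 input saline pump 1 or Epyc input saline pump 2) that adjusted p ranged from 0.054 to 0.0742. Between Epyc and Chrna5, 0 of 7 were called (edgeR; 2.41% of genes; 388 genes in all). The IPs of these lines used different gene lists, so line and list cannot be told apart there. Pnoc stood at 1.81 ± 0.59 (unadjusted p = 0.00415, adjusted p = 0.0957; 0.0371 with DESeq2, which called 1 member).

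Inputs were compared between the tissues, all on gene list 1, with 4 MHb and 12 IPN libraries. Of the MHb inputs, 2 came from saccharin water pools with saline injection, whereas the IPN inputs were baseline or saline pump. Tissue and treatment thus partly coincide. Here 5 of 7 members were called, with 32.8% of 15490 genes. Penk was lower in the MHb by -3.76 ± 0.27 (13.5-fold; adjusted p = 1.13e-10), and the highest MHb input (13.6 CPM) lay far under the lowest IPN input (77.2 CPM). Oprm1 went the other way, higher in the MHb by 1.01 ± 0.11 (2.01-fold; adjusted p = 3.32e-08), with 68.8 to 91.9 CPM against 35.5 to 50.6 CPM and no overlap. Oprd1 (-1.97 ± 0.39, adjusted p = 3.38e-04), Pnoc (-1.41 ± 0.28, 3.04e-04) and Oprk1 (-1.18 ± 0.20, 5.78e-05) were lower in the MHb. Pnoc and Oprk1 inputs overlapped between the tissues, while the highest MHb Oprd1 value (1.77 CPM) stayed under the lowest of the IPN (2.001 CPM). Oprl1 (-0.26 ± 0.14, adjusted p = 0.159) and Pdyn (0.57 ± 0.39, adjusted p = 0.282) were not called. Pdyn became 0.92 (adjusted p = 0.00569) without the Epyc saline pump input 2, its highest value. The dissections differed in bystander tissue: 5 thalamic markers summed to 2960 to 3400 CPM in MHb inputs and 408 to 609 CPM in IPN inputs, none at 0, and their part in these differences was not tested.

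Pull-downs of MHb and IPN neurons were compared on 1 gene list, with 3 ChAT and 3 Chrna5 IPs. The 3 ChAT pools had saccharin water and the 3 Chrna5 pools were baseline, so line and saccharin cannot be told apart. There 3 of 7 members were called, with 32.7% of 13917 genes. Penk was lower in ChAT by -7.97 ± 0.36 (250-fold; adjusted p = 3.82e-07), with 1.01, 1.48 and 2.58 CPM against 363, 445 and 529 CPM. Pnoc was lower by -4.90 ± 0.53 (adjusted p = 7.88e-05) and Oprd1 by -4.52 ± 0.60 (adjusted p = 3.05e-04). Oprm1 (0.39 ± 0.19, adjusted p = 0.156), Oprl1 (-0.37 ± 0.17, 0.134), Oprk1 (-0.96 ± 0.53, 0.200) and Pdyn (-0.69 ± 0.65, 0.460) did not pass. Oprk1 passed without the Chrna5 IP 1 (-1.40, adjusted p = 0.0455). For Oprm1 an approximate 95% interval, a normal factor times the SE, ran from 0.01 to 0.77. It is too narrow with so few libraries. The edgeR test gave an unadjusted p of 0.0728, so a difference of 0 is not excluded.

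The 3 IPN lines resembled each other more. Between Amigo1 and Epyc IPs, both on list 2, 1 of 7 members was called (8.05% of 13466 genes): Pnoc was lower in Amigo1 by -1.64 ± 0.43 (adjusted p = 0.0321), from IPs of 6.08, 6.49 and 15.9 CPM against 16.1 to 48.7 CPM. The call was lost in 5 of the 8 fits that left out 1 library, those without Amigo1 baseline 1 or 4, Epyc baseline 1 or 2, or Epyc saline pump 1, with adjusted p up to 0.112. Penk (0.44, adjusted p = 0.135), Oprm1 (0.48, 0.142), Oprk1 (-0.87, 0.219) and Oprl1 (0.02, adjusted p = 0.970) were not called, and over baseline libraries alone Oprk1 was (-1.26, adjusted p = 0.0457). Between Chrna5 and Amigo1 IPs, 1 of 7 was called (10.4% of 13834 genes): Oprm1 was lower in Chrna5 by -0.73 ± 0.22 (adjusted p = 0.0405). Without the Amigo1 saline pump IP 1, which held 169 CPM, it was -0.43 (adjusted p = 0.191), and without the Chrna5 IP 1 or 4 it was -0.61 (0.153) or -0.68 (0.144). Between Chrna5 and Epyc IPs 0 of 7 were called by edgeR (7.63% of 13834 genes; 2299 genes at an unadjusted p under 0.05). The nearest was Pnoc, at -1.28 ± 0.42 (adjusted p = 0.0806; 0.0191 with DESeq2, which called 1 member). Chrna5 IPs used another gene list than Amigo1 and Epyc IPs, so line and list cannot be told apart in the comparisons with Chrna5.

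The effect of the gene list was looked at within the ChAT control IPs, 2 on list 2 against 3 on list 1. There 0 of 6 members tested were called by edgeR (9.13% of 14543 genes; 3650 genes at an unadjusted p under 0.05), while DESeq2 called 2, Pdyn and Oprk1, and edgeR 3 without the list 1 IP of saline-injected pool 2. Pdyn was lower on list 2 by -3.20 ± 0.86 (adjusted p = 0.0567) and Oprk1 by -1.49 ± 0.51 (0.116). Oprl1 was higher by 0.43 ± 0.16 (adjusted p = 0.130) and Oprm1 by 0.33 ± 0.16 (0.241). These IPs also differ in treatment, so list and treatment cannot be told apart. Pnoc stood at -1.44 ± 1.04 (adjusted p = 0.435) and Penk at -0.62 ± 0.57 (0.550). Set beside the IP-to-input differences of the Amigo1 and Epyc lines, where list and fraction coincide, the list shift was of about the same size for Oprl1 (0.45 and 0.58) and for Oprk1 in Epyc (-1.68), and smaller for Oprk1 in Amigo1 (-2.83). For Pdyn (1.31 and -1.55) and Pnoc (-1.10 and 1.05) the list shift was the larger, and for Penk (2.51 and 1.77) and Oprm1 (1.44 and 1.07) the smaller. In the ChAT control IPs, Penk, Pdyn and Pnoc held at most 2.58, 1.11 and 0.590 CPM, within a few CPM of the floor. No size is therefore carried over from their shifts to the IPN lines.

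Levels of different genes were set side by side per kilobase of exon. In the IPs of the IPN lines Penk led by far, at 354 ± 52.8 CPM per kb in Amigo1, 273 ± 51 in Chrna5 and 263 ± 51.3 in Epyc (SD; n = 3, 3 and 5). Oprl1 followed at 18.7 to 18.8 CPM per kb and Oprm1 at 9.47 to 15.5, whereas Pnoc ranged from 4.39 ± 2.57 in Amigo1 to 13.6 ± 5.9 in Epyc. Pdyn, Oprd1 and Oprk1 were each at 2.13 CPM per kb or less. In the ChAT IPs the order was turned. Oprl1 (15.6 ± 2.53 CPM per kb, n = 9) and Oprm1 (13.5 ± 1.59) came first, and Penk stood at 0.926 ± 0.337 with the other 4 members lower still. Pdyn (0.227) and Pnoc (0.121) were the other peptide genes there. The order of Oprl1 and Oprm1 depends on the length used. In CPM, mean Oprm1 was above mean Oprl1 in the control IPs of Amigo1 (125 against 70.5), Chrna5 (76.1 against 70.5), Epyc (89.7 against 70) and ChAT (109 against 58.5).

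**Figure D3:**
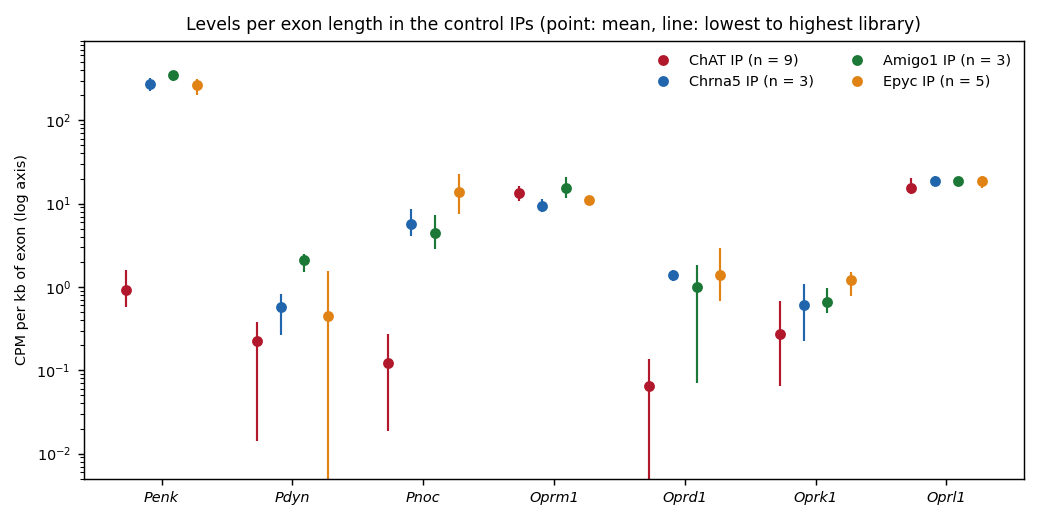
Mean CPM per kilobase of exon (log axis) of each gene in the control IPs by line, with a line from the lowest to the highest library (cut at the lower edge where a library was at 0). Penk leads in the IPN lines at 263 to 354 and drops to 0.926 in ChAT, while Oprl1 and Oprm1 stay between 9.47 and 18.8 in all 4.

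The other genes of the pathway, 48 genes on 9 lists, were called between IP and input at 58.3% of 48 tested in ChAT (11 higher, 17 lower), 51.1% of 47 in Chrna5 (17 and 7), 45.8% of 48 in Amigo1 (13 and 9) and 41.3% of 46 in Epyc (12 and 7). These shares were above those of all genes given earlier, and nothing particular to the list is read from that. Among 7 peptide processing genes, Pcsk2, a convertase that cuts precursors, and Pam, which amidates peptides, were higher in the IP of all 4 lines (Pcsk2 by 0.84 to 1.42, Pam by 0.63 to 1.75). Pcsk1, the other main convertase, was higher in ChAT (1.69 ± 0.15, adjusted p = 4.47e-07). Among peptide-degrading enzymes Mme, neprilysin, which breaks down enkephalins, was higher in all 4 lines, by 2.23 ± 0.17 in ChAT and 0.53 to 0.97 in the IPN lines. The GIRK channel genes differed by line. Of 4, 0 were higher and 3 lower in ChAT, 1 and 2 in Chrna5, 1 and 2 in Amigo1, and 1 and 1 in Epyc. Not all of those called are named here. Kcnj3 was lower in ChAT (-1.66 ± 0.31, adjusted p = 3.96e-04) and higher in Amigo1 (1.38 ± 0.18) and Epyc (1.24 ± 0.16). Kcnj6 was lower in each IPN line (-1.19 to -1.61), and Kcnj9 was lower in ChAT (-0.91) and higher in Chrna5 (1.12). Of the Gi/o proteins Gnai1 was lower in 4 of 4 lines, from -0.55 in Chrna5 to -2.40 in ChAT, and Gnao1, the main neuronal Go subunit, was higher in ChAT (0.94), Chrna5 (0.53) and Amigo1 (0.66). Both presynaptic calcium channel genes were lower in ChAT, Cacna1a by -1.67 and Cacna1b by -1.999, and neither was called in an IPN line. Pomc, the precursor of beta-endorphin, was not called in any IP-to-input comparison (adjusted p = 0.154 to 0.340).

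By the likeness of mean levels over the 8 control groups (4 lines by IP and input), Penk was nearest to Cacna1h, a low-voltage calcium channel (r = 0.997), Pde1c, a calmodulin-dependent phosphodiesterase (0.996), and Stk32b (0.996). Oprd1 was nearest to Pfkp, an enzyme of glycolysis (0.997), Tacr3, the neurokinin B receptor (0.996), and Disp2 (0.993). Oprk1 was nearest to Acaa2, an enzyme of fatty acid breakdown (0.997), Adamts9, a metalloprotease (0.991), and Galnt10 (0.991). For Oprm1 these were Dpp9 (0.994), Tmem55a (0.989) and Hnrnpul2 (0.988), and for Oprl1 Smarca4 (0.988) and Srcin1 (0.984). Pnoc was nearest to A330074K22Rik (0.979), Ankrd34b (0.978) and Fgf18 (0.977), and Pdyn to Dhx16 (0.955), 2410006H16Rik (0.940) and Man2a1 (0.935). These are Pearson correlations over 8 points, picked as the highest of 12166 genes, and the points share pools and gene lists, so they describe likeness of pattern and nothing more.

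Nicotine was compared with control within the ChAT, Amigo1 and Epyc lines, on matching gene lists. The Chrna5 line had no nicotine library, and Oprd1 was not tested in ChAT. The 2 ChAT controls were 1 saccharin water pool with saline injection and 1 saline pump pool without saccharin, whereas all 3 nicotine pools had saccharin and 1 was injected, so these treatments are only partly matched. In the ChAT IPs, 3 nicotine against 2 controls, 0 of 6 members tested and 0 of 14560 genes (0%) were called by edgeR or by DESeq2, with 1135 genes at an unadjusted p under 0.05. Oprm1 stood at 103, 109.5 and 119.7 CPM with nicotine and at 116 and 131 CPM in controls. Its difference was -0.14 ± 0.15 (adjusted p = 0.696, approximate 95% interval -0.44 to 0.16, too narrow with so few libraries). Oprl1 stood at 44.3, 51.9 and 64.3 CPM against 70.1 and 75.6 CPM, below the controls in 3 of 3 libraries, but the difference of -0.43 ± 0.19 did not pass (adjusted p = 0.525). Against all 9 ChAT control IPs the Oprl1 ranges overlapped. The peptide genes, Oprd1 and Oprk1 stayed at 4.78 CPM or less in every ChAT nicotine IP.

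In the Amigo1 IPs, 3 nicotine against 3 controls, 0 of 7 members and 0 of 12276 genes (0%) were called by edgeR, with 1794 genes at an unadjusted p under 0.05. DESeq2 called 967 genes but no member. Penk stood at 691.9, 1238 and 1919 CPM with nicotine against 478.5, 626 and 629.6 CPM, above every control in 3 of 3 libraries. Before TMM scaling, whose factors were 0.626 to 0.687 in the nicotine libraries, that did not hold: pool 3 held 416.6 CPM, below the lowest control (448.5 CPM). The difference on scaled values was 1.23 ± 0.41 (adjusted p = 0.191), and 0.54 (adjusted p = 0.652) without the scaling. The other members scattered. Nicotine pool 3 held 829.5 CPM of Oprm1, 68.5 of Pnoc and 71.2 of Oprk1. Pools 1 and 4 held 75.2 and 59.6 CPM of Oprm1, 0 and 0 of Pnoc, and 0 and 0.313 of Oprk1. Controls held 93.4 to 169 CPM of Oprm1, 6.08 to 15.9 of Pnoc and 4.504 to 8.865 of Oprk1, so pool 3 lay above and the other pools below every control in all 3 genes. The differences were 1.46 ± 1.00 for Oprm1, 1.36 ± 2.51 for Pnoc and 2.07 ± 2.32 for Oprk1 (adjusted p = 0.592, 0.872 and 0.774), and all 3 turned negative without pool 3 (Oprm1 to -0.82); no size is read for Pnoc and Oprk1 there, since the remaining pools were at or near 0. Oprl1 stood at 25.1, 25.9 and 85.2 CPM against 62.15 to 75.9 CPM (-0.54 ± 0.80, adjusted p = 0.834). In the same nicotine libraries the summed IPN neuron markers were 17900 to 37800 CPM against 6550 to 7650 CPM in controls, with Sst at 2.65 ± 0.34 (log2; adjusted p = 0.101), a median of -0.001 over the 8 of 9 markers tested and the driver Epyc at 0. Chat, Gpr151 and Slc18a3 of the MHb list and 4 of 5 endothelial markers were also at 0. The part of library make-up in the member values was not tested. These mice also drank saccharin, which their controls did not, so nicotine and saccharin cannot be told apart.

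**Figure D4:**
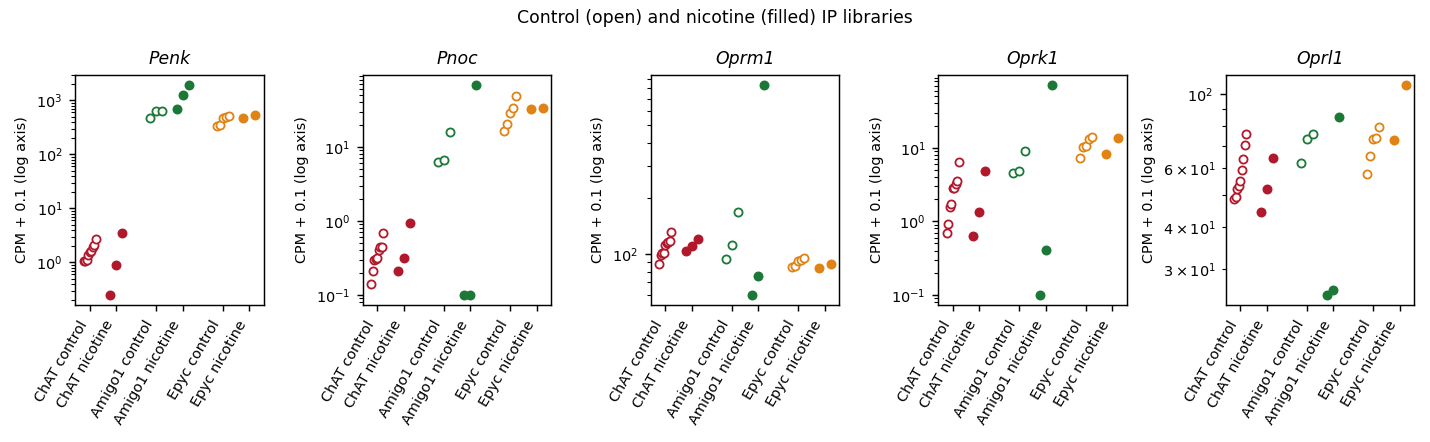
CPM (log axis, 0.1 added) of 5 members in control (open) and nicotine (filled) IPs of the ChAT, Amigo1 and Epyc lines, 1 point per library. The Epyc and ChAT groups overlap in most panels, and Oprm1 in the Amigo1 nicotine libraries runs from 59.6 to 829.5 CPM, around controls at 93.4 to 169 CPM.

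Of the 5 Epyc control IPs, 4 were baseline pools with no pump and 1 was a saline pump pool, so nicotine largely coincides with the pump. In the Epyc IPs, 2 nicotine pump against 5 control pools, 0 of 7 members were called and 1 of 13810 genes (0.00724%), with 60 genes and no member by DESeq2 and 1330 genes at an unadjusted p under 0.05. Penk stood at 467 and 545.5 CPM against 332 to 510.1 CPM (0.24 ± 0.18, adjusted p = 0.706). Pnoc stood at 32.1 and 33.3 CPM against 16.1 to 48.7 CPM, and Oprm1 at 83.3 and 88.1 CPM against 84.6 to 94.45 CPM. Both groups overlapped in these genes. The differences were 0.15 ± 0.33 for Pnoc (adjusted p = 0.922) and -0.07 ± 0.17 for Oprm1 (adjusted p = 0.931). The approximate 95% interval for Oprm1, too narrow with so few libraries, was -0.40 to 0.26. Oprl1 stood at 73.0 and 106 CPM against 57.8 to 79.6 CPM (0.35 ± 0.20, adjusted p = 0.573), and Oprk1 at 8.08 and 13.3 CPM against 7.20 to 14.0 CPM. Set against each other in 1 fit, the nicotine differences of Amigo1 and Epyc were called apart for 0 of 7 members by edgeR and by DESeq2 (7.24% of 14290 genes by edgeR, 3168 at an unadjusted p under 0.05), for 3 without Amigo1 nicotine pool 3 and for 1 without pool 1.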

How the data were processed

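Each library had a deposited table of read counts by gene symbol. The submitters' processing notes name STAR 2.3.0e, HTSeq and mm10; amplified cDNA was sequenced, per the labels' protocols, so floors cover counting error only. Neither settings nor strand mode is given in the sources used here. Reads in no gene (8.46 to 27.28%), ambiguous reads and unnamed entries were left out. Tests used the 22682 symbols in every file, which held 71.6 to 98.3% of gene counts. Each comparison was an edgeR 4.0.16 quasi-likelihood test (R 4.3.3) with TMM scaling, filterByExpr (minimum count 10) and Benjamini-Hochberg adjustment over all genes tested. Called means adjusted p under 0.05. The edgeR fits were tried on simulated counts with the same spread for every gene, which the real libraries need not share. DESeq2, the pool block and the fit of all control libraries were not simulated. CPM are TMM-scaled over 44 libraries. No 2 libraries were identical. A replicate is a pool of mice; p-values measure the spread between pools. IP and input of 1 pool came from 1 homogenate: their deviations correlated at 0.47 in ChAT, 0.29 to 0.41 in Chrna5, 0.10 to 0.14 in Amigo1 and 0.04 to 0.05 in Epyc. A pool block, over the pools with both fractions, was therefore an alternative. DESeq2, no filter, other library sizes, subsets and left-out libraries were also tried. In nicotine comparisons and those between IPN lines, single members are given where a compared group averaged 10 CPM or more. Members below that, such as Pdyn and Oprd1, enter there only the counts of members tested and called. For the ChAT nicotine IPs their highest level is given as well. Named genes were the members, the pathway lists and the 3 genes most like each member over log2(mean CPM + 0.5), among genes of at least 5 CPM in a group; 1 of them is not reported here. Members and lists were chosen with earlier results of these data known.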

Additional observations from a re-analysis of the deposited data

Results flagged for a closer look

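Among the 42 sets of 4 to 10 libraries examined (7 genes by 6 groups), 5 held a library far from its group; chance alone gives about 1 in 20. Pdyn was 4.47 CPM in Epyc IP baseline 3, with the other 4 IPs at 0 to 1.10, and 9.11 CPM in Epyc input saline pump 2, with the other 3 at 1.51 to 2.47. Oprd1 was 9.65 CPM in Amigo1 input baseline 2, against 2.42 to 3.53 in the others. Oprk1 was 6.29 CPM in ChAT IP baseline 1, the others reaching 3.47. Oprl1 was 30.5 CPM in ChAT input saccharin water, saline injection 2, below the 38.6 to 40.2 of the others. That input also held the highest Oprd1 and Oprk1 values of its group.

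The IP-to-input difference was not the same in all lines. In ChAT it lay below the mean of the IPN lines for Penk (-4.47), Pnoc (-4.28), Pdyn (-2.39), Oprd1 (-2.18) and Oprm1 (-0.75), and for Pnoc it was higher in Epyc than in Amigo1 (2.16), on the log2 scale. The mix of gene lists also differed between the ChAT IPs and the IPN IPs.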

How the results depend on the processing

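Of 381 log2 differences of single members under other settings, 347 kept direction and side of the threshold, and of 1225 with 1 library left out, 1160 did; the cause was not tested for the rest. Where direction or a count changed, the values were as follows.

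Members called between IP and input numbered 4 in ChAT over the paired pools without a block, which are the saccharin water with saline injection pools, and 5 with the replicate block. In Chrna5, Amigo1 and Epyc the block gave 5, 3 and 5 called. Fits with the block kept only pools with both fractions, 2 pools in ChAT. Their calls differed from those over all control libraries for Oprm1 and Oprd1 in ChAT and Pnoc in Chrna5. Oprm1 in ChAT was also uncalled over the paired pools without the block (0.28, adjusted p = 0.455). In Amigo1 the count was 6 with DESeq2, 5 without TMM scaling, 5 over baseline libraries, and 3 to 6 with 1 library left out. Amigo1 against Epyc IPs gave 2 over baseline libraries and 0 to 1 with 1 left out. Chrna5 against Amigo1 IPs gave 0 without TMM scaling and 0 to 1 with 1 left out. Chrna5 against Epyc IPs gave 1 with DESeq2, as did the difference of their IP-to-input differences. The gene list shift gave 2 with DESeq2, 1 with no filter and 0 to 3 with 1 left out. The nicotine differences of Amigo1 and Epyc gave 0 to 3, and their IP-to-input differences 0 to 2, with 1 left out.

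Directions turned for Oprd1 in Amigo1 IP against input (0.343 over paired pools without a block, 0.128 over baseline libraries), Oprl1 in Amigo1 against Epyc IPs (-0.009, baseline libraries), Chrna5 against Amigo1 IPs (0.051, no TMM) and Chrna5 against Epyc IPs (-0.010, DESeq2), Oprl1 in the ChAT minus IPN difference (-0.055, no TMM), Oprm1 for nicotine in ChAT (0.093, uninjected pools) and Oprk1 for nicotine in Epyc (0.054, saline pump control); none of these passed the test.

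With 1 library left out, IP-to-input differences of uncalled members ranged from -0.688 to 0.031 for Pdyn in Chrna5, -0.984 to 0.343 for Oprd1 in Amigo1 and -0.044 to 0.592 for Oprd1 in Epyc. Between Amigo1 and Epyc IPs Oprl1 ranged from -0.039 to 0.106. Between Chrna5 and Amigo1 IPs Pnoc ranged from -0.080 to 0.951 and Oprl1 from -0.112 to 0.058. Between Chrna5 and Epyc IPs Penk ranged from -0.082 to 0.171 and Oprl1 from -0.099 to 0.059. For nicotine in Amigo1, Pnoc ranged from -10.163 to 1.975, Oprm1 from -0.820 to 1.935 and Oprk1 from -5.179 to 2.636, the low ends being without pool 3, where Pnoc was at 0 in both nicotine libraries left. For nicotine in Epyc Oprk1 ranged from -0.443 to 0.253. Among differences of IP-to-input differences, Oprl1 ranged from -0.031 to 0.093 for ChAT minus IPN lines and from -0.208 to 0.066 for Epyc minus Chrna5, where Oprm1 ranged from -0.009 to 0.264. Depth limits Pdyn, Oprd1 and, in ChAT IPs, Pnoc, which are within a few CPM of the floor.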
